A study of Mus musculus with 16 samples.

Results

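The genes described here are 10 effectors and feedback genes of the cyclic AMP (cAMP) pathway, taken by name from the 51912 genes of the count table. They are the adenylyl cyclase *Adcy7*, the protein kinase A (PKA) subunits *Prkar1a* and *Prkacb*, the phosphodiesterases *Pde3b*, *Pde4a*, *Pde4b* and *Pde4d*, the transcription factors *Creb1* and *Crem*, and the salt-inducible kinase *Sik1*. All 10 passed the filter on low counts. When a receptor coupled to the G protein Gs is bound by its ligand, adenylyl cyclases make cAMP, which frees the catalytic subunits of PKA from their regulatory subunits, and PKA phosphorylates CREB at cAMP response elements in target promoters. Phosphodiesterases hydrolyse cAMP and so end the signal, and several genes that CREB switches on, among them *Crem*, *Sik1* and genes of the PDE4 family, act back on the pathway. The receptor for calcitonin gene-related peptide (CGRP) couples to Gs, and cAMP is a known brake on type 2 innate lymphoid cells (ILC2s), the tissue lymphocytes that make IL-5 and IL-13.

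ILC2s from the lungs of WT and *Pac1-/-* mice, sex and age matched at 6 to 8 weeks, were compared by bulk mRNA-seq. *Pac1* is another name of *Dusp2*, which encodes a phosphatase of MAP kinases, and the *Pac1-/-* mice lack it. All cells received IL-7 at 100 ng/mL for 4 h. One group of each genotype had nothing else (called IL-7 below), the second also had IL-33 at 100 ng/mL (IL-33), and the third and the fourth had both cytokines with either CGRP (CGRP) or neuromedin U (NMU) at 500 ng/mL. IL-33 is an alarmin that activates ILC2s, and neuromedin U is a neuropeptide whose receptor on ILC2s couples mainly to Gq. That gave 8 groups of 2 libraries, 16 in all, from about 500 ILC2s each, sorted at a purity above 90%. Per the study's methods, lung ILC2s for culture were grown for 1 to 2 weeks with IL-2 and IL-7. The methods for the bulk sequencing do not repeat this step, so whether these cells were expanded first is not certain. The deletion is not described as limited to ILC2s. No source states that the 2 libraries of a group came from separate mice, so the p-values measure the spread between libraries, which may be technical.

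The libraries held 6764992 to 15963357 counts, and 3 counts, taken as the limit that a count of 0 allows, corresponded to 0.188 to 0.443 CPM, counts relative to the library total. The summed level of 10 ILC2 markers lay between 6975 and 8362 CPM in every library, with *Gata3* and *Il1rl1* detected in all 16 and *Il17rb* at 0 in 3. Some single markers within that sum differed by treatment. *Il7r* was at 299 to 427 CPM with NMU and 598 to 933 CPM with IL-33, and *Rora* at 1609 to 1805 CPM with CGRP and 854 to 1401 CPM with IL-33. The targeted gene hardly checked the genotype labels. *Dusp2* had 0 counts in all 8 *Pac1-/-* libraries and also in 6 of 8 WT libraries, and the other two WT libraries held 57 and 29 counts. Libraries also differed in ways that followed treatment. The share of mitochondrial counts was 8.60 to 10.2% with IL-7, 3.94 to 7.96% with IL-33, 8.30 to 12.6% with CGRP and 3.32 to 5.54% with NMU. The summed CPM of 5 B cell markers was 55.8 to 111 with IL-33 and 136 to 521 with CGRP, where the *Pac1-/-* libraries were the highest (521 and 437 CPM, against 136 and 204 CPM in WT). In bulk RNA, fewer cells of a type and less RNA per cell cannot be told apart.

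Levels of different genes were compared per length, in RPKM (counts scaled by library size and exon length), as means over all 16 libraries. *Crem* stood far above the rest at 795 RPKM. By CPM, which is not corrected for length, it ranked 17 among all genes in the table. Its symbol covers activators and repressors of CREB-driven transcription, including the short repressor ICER, which is made from an internal promoter. The annotation lists 39 *Crem* transcripts with 26 distinct start positions, and these counts per gene do not separate them. *Prkar1a*, which encodes the type I regulatory subunit that holds PKA inactive and has 5 transcripts, followed at 126 RPKM.

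The other 8 members were lower by more than an order of magnitude than *Prkar1a*. *Pde3b*, a phosphodiesterase that cyclic GMP inhibits, was at 7.14 RPKM, and *Pde4b*, a cAMP-specific phosphodiesterase, at 5.5 RPKM. *Creb1*, the factor that PKA phosphorylates, was at 5.21 RPKM and *Prkacb*, a catalytic subunit of PKA, at 4.87 RPKM. *Adcy7* lay at 3.64 RPKM and *Sik1*, a kinase that keeps the CREB coactivators out of the nucleus, at 3.55 RPKM. *Pde4d* was at 0.959 RPKM and *Pde4a* at 0.0826 RPKM. The step from one of these 6 middle genes to the next was smaller than the spread between their libraries.

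The members also differed in how well the 2 libraries of a group matched. The median ratio of the higher to the lower library over the 8 groups was 1.12 for *Crem*, 1.22 for *Pde4b* and 1.26 for *Prkar1a*. It was 1.57 for *Sik1*, 1.63 for *Adcy7* and 1.75 for *Prkacb*. *Pde4a* had 0 counts in 8 of 16 libraries, among them all 4 with NMU. It reached 3.40 CPM in *Pac1-/-* IL-7 replicate 1, 3.51 CPM in *Pac1-/-* IL-33 replicate 2 and 1.93 CPM in *Pac1-/-* CGRP replicate 1. In the other 13 libraries *Pde4a* was at 0.446 CPM or less, and no fold change is given for it. *Crem*, *Pde4d* and *Prkacb* overlap small annotated genes, and since no source states whether counting used strand, part of their counts is uncertain.

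**Figure D1:**
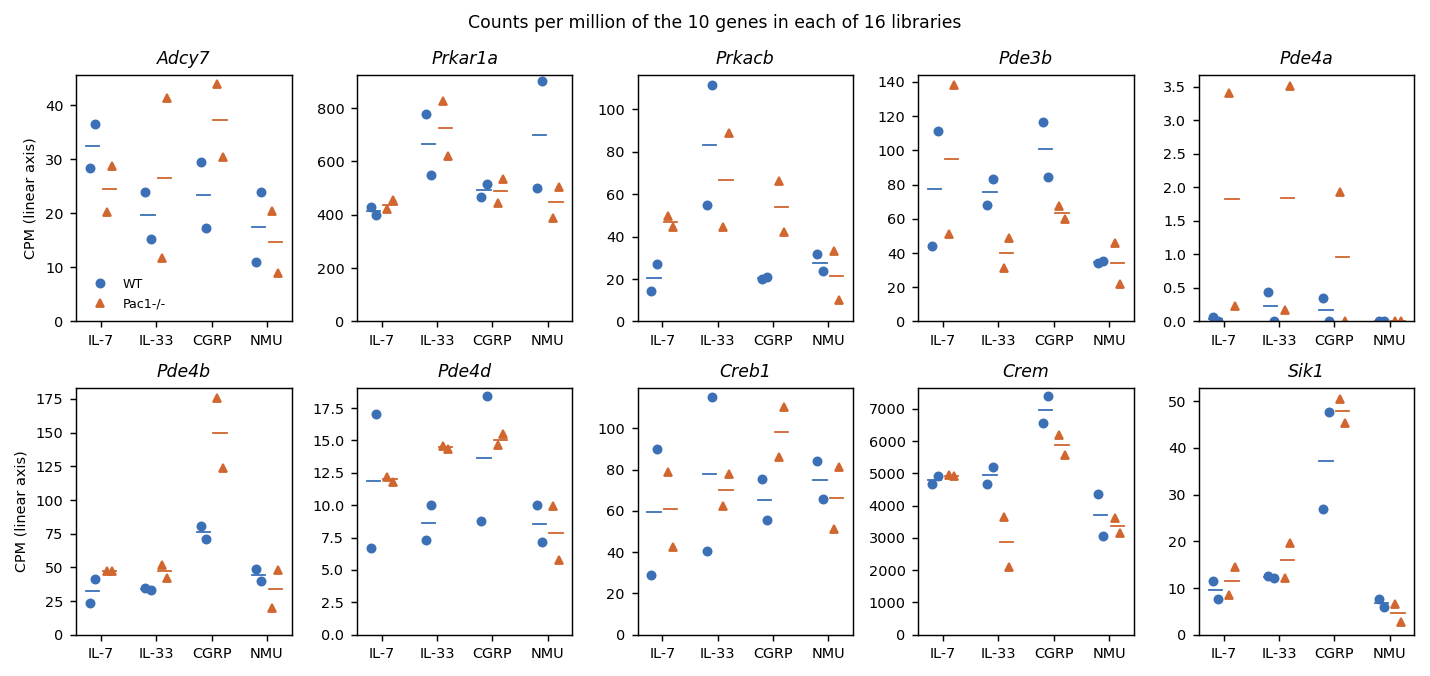
Level of each member in the 16 libraries, in CPM (linear axis) by treatment, with WT as circles, *Pac1-/-* as triangles and a bar at the mean of the 2 libraries of each group. *Crem*, *Pde4b* and *Sik1* are higher in all 4 CGRP libraries than in any IL-33 or NMU library, whereas *Pde4a* is at 0 in 8 libraries.

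The promoters of the members were searched for the sequence that CREB binds, because several of them are known targets of that factor. The full palindromic site TGACGTCA and its core, TGACG or the reverse complement CGTCA, were looked for in windows of 300 bases, from 250 before to 50 after each start, in the RefSeq table for GRCm38.p6. A full site contains the core on both strands. The table lists windows for 7 members (*Adcy7*, *Prkar1a*, *Prkacb*, *Pde4a*, *Pde4b*, *Pde4d* and *Creb1*) and not for *Crem*, *Pde3b* and *Sik1*. Of the 21 windows of these 7 genes, 7 held the core (33.3%), against 6836 of all 32841 windows (20.8%). *Prkar1a* alone gave 3 of these 7 windows, and 2 of its windows overlap and share the same core. Windows of 1 gene are therefore not independent, and the shares are only a description. The full site was in 2 overlapping windows of *Prkar1a* and in 588 of all windows (1.79%). The single windows of *Creb1* and *Pde4d* did not hold these letters. A match is a description of the sequence and not evidence of binding. The core was in 1 of the 4 windows of *Pde4b*, and which start was in use was not measured. The stretch of 30 bases around the match nearest to a start is shown for each of the 5 members with one. The match in *Pde4b*, which rose with CGRP, can so be set beside those in the other members. The stretches are written 5′ to 3′ on the gene's strand, with the matched letters in capitals. They lie at chr8:88282952-88282981 (*Adcy7*, plus strand, 28 bases before the start), chr11:109650889-109650918 (*Prkar1a*, plus strand, 49 before the start at position 109650949 and 39 after another start at position 109650862), chr3:146813031-146813060 (*Prkacb*, minus strand, 102 before), chr9:21184039-21184068 (*Pde4a*, plus strand, 50 before) and chr4:102421509-102421538 (*Pde4b*, plus strand, 34 before).
Adcy7: tgatcatagagcCGTCAggggggtggggct
Prkar1a: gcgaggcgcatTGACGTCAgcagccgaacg
Prkacb: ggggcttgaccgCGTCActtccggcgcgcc
Pde4a: ggcacagctcgaCGTCAggctggggaggag
Pde4b: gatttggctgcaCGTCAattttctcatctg

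The first comparison asked what CGRP changed in cells that already received IL-7 and IL-33. *Crem*, *Pde4b* and *Sik1* were higher in all 4 CGRP libraries than in all 4 IL-33 libraries. How many of all genes separate in this way was not determined. Lack of overlap, here, in the figures and below, is therefore only a description of single genes. A gene was called when its fold change was above 1.5 and its adjusted p under 0.05 in edgeR's quasi-likelihood test, adjusted by Benjamini-Hochberg over 14979 genes, both genotypes averaged. *Crem* and *Pde4b* were called higher, 2 of the 10 members, and none was called lower. Over all genes 413 were called (2.76%), 247 of them higher (1.65%). The median log2 fold change was 0.37 over the 9 members other than *Pde4a* and -0.09 over all genes tested, and 7 of the 9 lay above 0.

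*Crem* (ENSMUSG00000063889) spans chr18:3266048-3337748 on the minus strand of GRCm38. It was at 4679 and 5201 CPM in the 2 WT and at 3651 and 2092 CPM in the 2 *Pac1-/-* IL-33 libraries. With CGRP it was at 6561 and 7383 CPM in WT and at 6199 and 5578 CPM in *Pac1-/-*. The groups did not overlap, and the lowest CGRP library, a *Pac1-/-* one, was above the highest IL-33 library, a WT one. The mean went from 3906 ± 1370 CPM to 6430 ± 754 CPM (SD, n = 4), on the log2 scale a change of 0.77 ± 0.18 (SE), or 1.70-fold, with an adjusted p of 0.0350 in edgeR's quasi-likelihood test. The IL-7 libraries, at 4683 to 4934 CPM, lay between the CGRP libraries and most IL-33 libraries. This call lay near the threshold, and leaving out 1 library could undo it. That held also for the IL-7 libraries, which are not in the comparison and without which the log2 fold change stayed at 0.77. Leaving out each of the 16 in turn gave log2 fold changes of 0.62 to 0.995 and adjusted p of 0.00633 to 0.143. *Crem* passed the threshold in 5 of the 16 fits, those without *Pac1-/-* IL-33 replicate 1 or without any 1 of the NMU libraries, and missed it in the other 11. With the 8 libraries of the comparison alone the adjusted p was 0.0997.

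*Pde4b* (ENSMUSG00000028525) spans chr4:102087543-102607259 on the plus strand of GRCm38. It was at 34.4 and 32.9 CPM in the WT and at 51.5 and 42.4 CPM in the *Pac1-/-* IL-33 libraries. With CGRP it was at 80.9 and 71.0 CPM in WT and at 175 and 124 CPM in *Pac1-/-*. All 4 CGRP libraries were above all 12 others, with the *Pac1-/-* ones highest. The mean went from 40.3 ± 8.54 CPM to 113 ± 47.7 CPM (SD, n = 4), a log2 fold change of 1.42 ± 0.32 (SE), or 2.68-fold, with an adjusted p of 0.0331 in edgeR's quasi-likelihood test. Leaving out single libraries gave log2 fold changes of 1.29 to 1.54 and adjusted p of 0.0202 to 0.125. The call was missed in 6 of the 16 fits, those without any 1 of the IL-33 libraries, without WT CGRP replicate 1 or without *Pac1-/-* CGRP replicate 1.

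*Sik1* (ENSMUSG00000024042) spans chr17:31844250-31855804 on the minus strand of GRCm38. *Sik1* had the largest fold of the 10 members but was not called. It was at 12.6 and 12.2 CPM in WT and at 12.2 and 19.7 CPM in *Pac1-/-* IL-33 libraries. With CGRP it was at 26.8 and 47.6 CPM in WT and at 50.4 and 45.3 CPM in *Pac1-/-*. The ranges did not overlap. The log2 fold change was 1.58 ± 0.48 (SE; 95% interval 0.55 to 2.62), or 3.0-fold, with an adjusted p of 0.107 in edgeR's quasi-likelihood test. DESeq2, which called 1531 genes in all, gave an adjusted p of 0.000213, and edgeR with a minimum of 10 counts in every library, where 608 of 5992 genes were called, gave 0.0296.

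Both PKA subunits lay lower with CGRP than with IL-33 without passing the test. *Prkar1a* was at 779, 548, 828 and 620.1 CPM in the IL-33 libraries and at 468, 516, 444 and 536 CPM in the CGRP libraries. These ranges did not overlap, and the log2 fold change was -0.50 ± 0.21 (SE) with an adjusted p of 0.243 in edgeR's quasi-likelihood test. *Prkacb* was at 55.1 and 111 CPM in WT and at 44.5 and 88.6 CPM in *Pac1-/-* libraries with IL-33, against 20.04 and 21.2 CPM in WT and 66.1 and 42.3 CPM in *Pac1-/-* libraries with CGRP. Only the WT libraries were separated, and the pooled log2 fold change was -1.16 ± 0.43 (SE; adjusted p = 0.201 in edgeR's quasi-likelihood test). The other 5 members overlapped between CGRP and IL-33. *Creb1*, at 40.5 to 115 CPM with IL-33 and 55.7 to 110.2 CPM with CGRP, had a log2 fold change of 0.12. Its 95% interval, not adjusted for the number of genes, was -0.76 to 0.99, so changes within that range remain possible. The smallest change that could have been called was not determined.

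**Figure D2:**
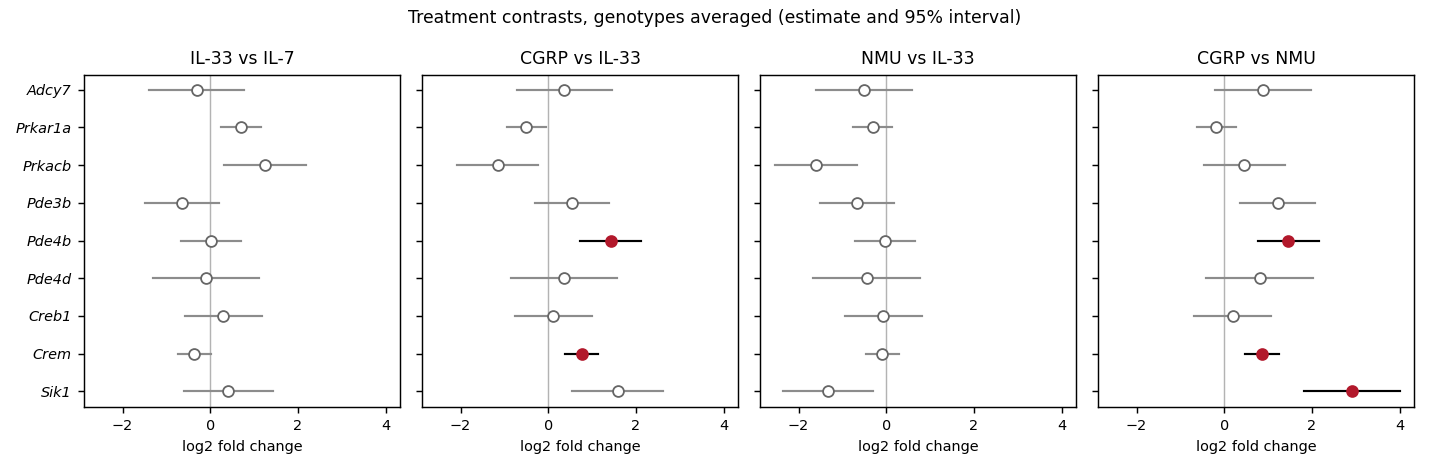
Log2 fold change of 9 members in 4 treatment contrasts with both genotypes averaged (*Pde4a* left out), points with their 95% interval from the edgeR fit and filled red where called. *Crem* and *Pde4b* are called for CGRP against IL-33 (0.77 and 1.42), and *Crem*, *Pde4b* and *Sik1* for CGRP against NMU (0.86, 1.46 and 2.91), while no member is called for IL-33 against IL-7 or NMU against IL-33.

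Other values moved with CGRP beside these members. The share of mitochondrial counts, 8.30 to 12.6% with CGRP against 3.94 to 7.96% with IL-33, did not overlap, like *Crem*. The B cell markers lay highest in the same 2 *Pac1-/-* CGRP libraries as *Pde4b*. Among them *Ms4a1* reached 84.5 CPM and was at 0 in 1 of 4 CGRP and 3 of 4 IL-33 libraries, *Cd79b* lay at 34.8 to 163 CPM and *Ighm* at 100.3 to 251 CPM with CGRP. The 4 mast cell and basophil markers summed to 79.3 to 190 CPM with CGRP and 42.8 to 77.9 CPM with IL-33, nearly all of it *Cpa3*, with *Mcpt8* at 0 in all 4 CGRP libraries. Other sets were lower with CGRP. The 4 epithelial markers summed to 11.2 to 25.1 CPM against 42.2 to 83.3 CPM with IL-33, and the 2 ILC3 markers to 0 to 1.25 CPM against 3.34 to 8.63 CPM. Without both *Pac1-/-* CGRP libraries the comparison within WT gave log2 fold changes of 0.50 for *Crem*, 1.17 for *Pde4b* and 1.58 for *Sik1*, with no member and 59 genes in all called. Leaving mitochondrial genes out of the library totals changed no call among the members in this comparison. Beyond these values, the part of the mitochondrial share and of these marker sets in the results was not tested.

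**Figure D3:**
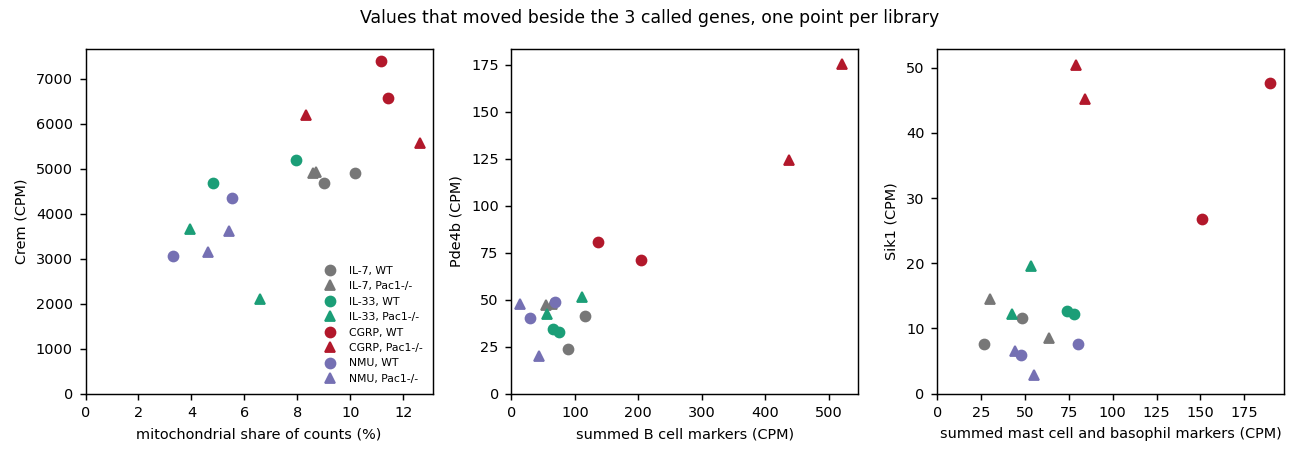
*Crem* against the share of mitochondrial counts, *Pde4b* against the summed B cell markers and *Sik1* against the summed mast cell and basophil markers, in each of the 16 libraries by treatment. The CGRP libraries hold the highest levels of all 3 genes, with mitochondrial shares of 8.30 to 12.6%, B cell sums of 136 to 521 CPM and mast cell sums of 79.3 to 190 CPM.

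The 4 phosphodiesterase members summed to 9.53 to 13.1 RPKM with IL-33 and to 17.5 to 25.5 RPKM with CGRP, ranges that did not overlap. With IL-7 the sum was 7.61 to 20.7 RPKM, which reached into the CGRP range. *Pde4b* made up a median of 32.5% of that sum with IL-33 and 49.2% with CGRP, and *Pde3b* a median of 57.0% and 43.2%, with overlapping ranges. With NMU the sum was 7.40 to 9.22 RPKM, below every IL-33 library. *Pde4b* was then a median of 48.0% of it, with a range of 24.2 to 61.1% that overlapped the 23.9 to 51.2% with IL-33. *Pde3b* itself was at 31.1 to 83.0 CPM with IL-33, 59.6 to 117 CPM with CGRP and 21.9 to 45.9 CPM with NMU. It was not called for CGRP against IL-33 (log2 fold change 0.54 ± 0.39 SE, adjusted p = 0.524 in edgeR's quasi-likelihood test) or for NMU against IL-33 (-0.68 ± 0.39 SE, adjusted p = 0.816).

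NMU was set against IL-33 in the same way, and this comparison shares the IL-33 libraries with the one for CGRP. The 9 members other than *Pde4a* had a negative log2 fold change, with a median of -0.45 against -0.08 over all genes tested, but none was called. Over all genes 28 were called (0.187%). At an unadjusted p under 0.05 there were 2 of these 9 members and 974 of all 14979 genes. *Sik1*, at 7.54 and 5.90 CPM in WT and 6.50 and 2.79 CPM in *Pac1-/-* libraries with NMU, lay below every IL-33 library, with a log2 fold change of -1.33 ± 0.48 (SE; adjusted p = 0.611 in edgeR's quasi-likelihood test). *Prkacb*, at 31.7 and 23.7 CPM in WT and 32.98 and 10.1 CPM in *Pac1-/-* libraries, also lay below every IL-33 library, with -1.61 ± 0.44 (SE; adjusted p = 0.288). DESeq2 called both lower, with adjusted p of 0.0159 for *Sik1* and 0.0112 for *Prkacb*, among 292 genes it called in all. *Crem*, at 4351 and 3055 CPM in WT and 3620 and 3145 CPM in *Pac1-/-* libraries, and *Pde4b*, at 19.8 to 49.0 CPM, overlapped the IL-33 libraries with log2 fold changes of -0.09 (95% interval -0.47 to 0.29) and -0.04. With NMU the 4 epithelial markers summed to 35.5 to 308 CPM and the 5 myeloid markers to 2.79 to 123 CPM, against 42.2 to 83.3 and 1.19 to 15.8 CPM with IL-33, and their part in these values was not tested.

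Set directly against each other, the neuropeptides differed in 3 of the 10 members, all higher with CGRP, where 820 genes were called in all (5.47%), 394 of them higher (2.63%). The median log2 fold change was 0.86 over the 9 members other than *Pde4a* and 0.02 over all genes tested, and 8 of the 9 lay above 0. *Sik1* was 7.54-fold higher with CGRP (log2 2.91 ± 0.50 SE, adjusted p = 0.00462 in edgeR's quasi-likelihood test) and was called in all 16 fits that left out 1 library, with adjusted p of 0.00610 to 0.0320. *Pde4b* was 2.75-fold higher (log2 1.46 ± 0.32 SE, adjusted p = 0.0184) and *Crem* 1.81-fold higher (log2 0.86 ± 0.18 SE, adjusted p = 0.0127). The *Crem* call was missed without *Pac1-/-* NMU replicate 2 (adjusted p = 0.0590), and the *Pde4b* call without *Pac1-/-* CGRP replicate 1, either WT NMU library or *Pac1-/-* NMU replicate 1, with adjusted p up to 0.0773. With the libraries of this comparison alone *Pde4b* had an adjusted p of 0.0876. Without both *Pac1-/-* CGRP libraries none of the 3 was called within WT, where 204 genes were. *Pde3b* also did not overlap between the peptides, at 2.33-fold (log2 1.22 ± 0.39 SE, adjusted p = 0.0981). It was called with DESeq2 (adjusted p = 0.0149, 2244 genes called in all), without a filter on low counts (0.0409) and with at least 10 counts in every library (0.0290).

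Across the 4 treatments the order of the mean level was therefore not the same for the members called. For *Crem* it was CGRP (6430 ± 754 CPM), IL-7 (4858 ± 117 CPM), IL-33 (3906 ± 1370 CPM) and NMU (3543 ± 593 CPM; SD, n = 4 each), and IL-33 overlapped both of its neighbours. For *Pde4b* CGRP stood alone at 113 ± 47.7 CPM, and the other means, 40.3 ± 8.54 with IL-33, 40.0 ± 11.3 with IL-7 and 39.1 ± 13.5 CPM with NMU, were within their spread. For *Sik1* it was CGRP (42.5 ± 10.7 CPM), IL-33 (14.2 ± 3.66 CPM), IL-7 (10.6 ± 3.16 CPM) and NMU (5.68 ± 2.04 CPM), where IL-33 and IL-7 overlapped and NMU lay below both.

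IL-33 added to IL-7 called none of the members and 5 genes in all (0.0334%), and 2 members and 1480 genes had an unadjusted p under 0.05. DESeq2 called 336 genes and no member. The median log2 fold change was 0.02 over the 9 members other than *Pde4a* and 0.08 over all genes. Both PKA subunits had positive values without passing the test. *Prkar1a* was at 430, 400.0, 420.5 and 454 CPM with IL-7 and at 548 to 828 CPM with IL-33, without overlap, at a log2 fold change of 0.70 ± 0.21 (SE) and an adjusted p of 0.359 in edgeR's quasi-likelihood test. *Prkacb* was at 14.1 and 27.2 CPM in WT and 49.5 and 44.4 CPM in *Pac1-/-* libraries with IL-7, and these overlapped the IL-33 libraries in *Pac1-/-*. Its log2 fold change was 1.26 ± 0.43 (SE; adjusted p = 0.400). *Crem* went the other way, by -0.37 ± 0.17 (SE; adjusted p = 0.519), with overlap. In the same comparison the 5 T cell markers, mostly *Cd3g*, summed to 170 to 266 CPM with IL-7 and 32.0 to 155 CPM with IL-33, and the epithelial markers, mostly *Epcam*, to 14.2 to 41.0 CPM and 42.2 to 83.3 CPM, and their part in these values was not tested.

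The study's other question was whether *Pac1-/-* ILC2s respond differently. Averaged over the treatments, no member was called between the genotypes, where 17 genes were in all (0.113%), 1 member and 1014 genes had an unadjusted p under 0.05, and the median log2 difference was 0.11 over the 9 members other than *Pde4a* against 0.04 for all genes. Within single treatments no member was called either, with 1 gene called in all under IL-7 (0.00668%), 1 under IL-33 (0.00668%), 16 under CGRP (0.107%) and 3 under NMU (0.02%). DESeq2 also called no member in these genotype comparisons. The direction was not the same in all treatments. Of the 9 members other than *Pde4a*, 8 had a positive log2 difference with IL-7, 5 with IL-33, 6 with CGRP and 0 with NMU. Their medians were 0.08, 0.12, 0.36 and -0.26, against 0, 0.03, 0.06 and 0 over all genes tested. In 12 of the 36 comparisons of these 9 members within a treatment the 2 libraries of one genotype lay apart from the 2 of the other, with none of them called. Groups of 2 libraries often lie apart without a difference, and the share over all genes was not determined. This count is therefore not read as a difference between the genotypes. Of these 12, the 3 with the smallest unadjusted p are given as examples. With IL-33 both *Pac1-/-* libraries had less *Crem* than both WT libraries (log2 difference -0.78 ± 0.25 SE, adjusted p = 0.950 in edgeR's quasi-likelihood test). With CGRP both *Pac1-/-* libraries had more *Pde4b* (0.98 ± 0.45 SE, adjusted p = 0.634) and more *Prkacb* (1.39 ± 0.61 SE, adjusted p = 0.614) than both WT libraries.

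**Figure D4:**
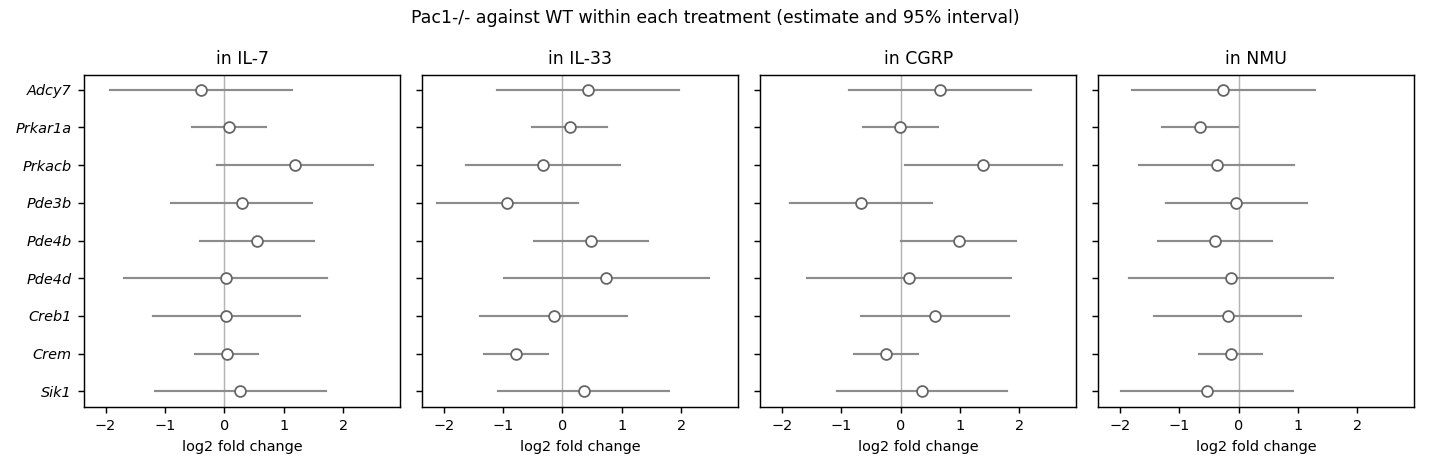
Log2 difference of *Pac1-/-* from WT ILC2s for 9 members within each of the 4 treatments, with its 95% interval from the edgeR fit (*Pde4a* left out). No member is called in any treatment; *Crem* with IL-33 (-0.78), *Pde4b* with CGRP (0.98) and *Prkacb* with CGRP (1.39) lie among those farthest from 0.

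The response to CGRP was close in size in the genotypes for *Sik1*, at a log2 fold change of 1.58 in WT and 1.59 in *Pac1-/-*, although the 95% interval of their difference ran from -2.07 to 2.09. *Pde4b* changed by 1.17 in WT and 1.67 in *Pac1-/-* (difference 0.50, 95% interval -0.86 to 1.86), and *Crem* by 0.50 and 1.04 (difference 0.54, interval -0.21 to 1.29). *Prkacb* changed by -2.01 in WT and -0.30 in *Pac1-/-* (difference 1.72, interval -0.13 to 3.56). In WT *Prkacb* had gone up by 2.01 with IL-33 over IL-7 and down by the same amount with CGRP, whereas in *Pac1-/-* the libraries overlapped in both steps, and these steps share the IL-33 libraries. None of these differences in response was called by edgeR's quasi-likelihood test, with adjusted p of 0.840 for *Crem* and 0.807 for *Prkacb* under CGRP, and no gene in the table was. At an unadjusted p under 0.05, 726 genes differed in the response to IL-33, 905 to CGRP and 813 to NMU, 1 of them a member in the first and none in the others, and DESeq2 called 80 genes for IL-33, 212 for CGRP and 49 for NMU, none of them a member. Within a genotype no member was called for CGRP against IL-33 either, where 69 genes were called in WT (0.461%) and 171 in *Pac1-/-* (1.14%). For *Crem* in *Pac1-/-* the adjusted p was 0.0720. The same held for NMU against IL-33, with 2 genes in all called in WT (0.0134%) and 16 in *Pac1-/-* (0.107%), and for IL-33 against IL-7, with 0 and 2 genes called (0.0134% in *Pac1-/-*). DESeq2 made 6 calls of members over these 6 comparisons within a genotype, where it called 821 genes for CGRP in WT, 980 for CGRP in *Pac1-/-* and 305 for NMU in *Pac1-/-*. For CGRP they were *Sik1* higher in both genotypes, *Crem* and *Pde4b* higher in *Pac1-/-* and *Prkacb* lower in WT, and for NMU *Sik1* lower in *Pac1-/-*.

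The rest of the pathway was described from lists of 69 genes grouped by role, of which 53 could be tested. The lists were chosen with earlier results of these data known, so the calls in them are a description. For CGRP against IL-33, 8 of the 53 were called higher and none lower, all 8 from the 9 tested genes of the list of CREB targets. Over all genes 1.65% were called higher. The ninth, the clock gene *Per1*, was not called. None of the 11 receptor and G protein genes, 3 cyclases, 15 PKA subunits, inhibitors and anchors, 7 phosphodiesterases, 6 CREB partners or 2 salt-inducible kinases tested was called. The median log2 fold change of the CREB targets was 3.04, against -0.09 over all genes. *Fos*, an AP-1 subunit, went from 43.0, 24.6, 43.8 and 48.8 CPM with IL-33 to 410.2, 488, 592 and 592 CPM with CGRP, 13.0-fold. *Rgs2*, a regulator of G protein signalling, went from 1256, 1088, 933 and 646 CPM to 3949, 3899, 6051 and 4921 CPM, 4.82-fold. In both genes the 4 CGRP libraries stood clear of the 12 others. *Fosb* (12.7-fold) and *Junb* (8.58-fold), further AP-1 subunits, the nuclear receptors *Nr4a2* (9.54-fold), *Nr4a3* (8.23-fold) and *Nr4a1* (2.99-fold), and the MAP kinase phosphatase *Dusp1* (4.06-fold) made up the others. All 8 folds were larger than the 1.70 of *Crem* and the 2.68 of *Pde4b*.

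Each of these 8 genes, picked after their values were seen, has 1 promoter window in the RefSeq table. All 8 windows held the core of the CREB site, which 20.8% of all windows held. The window of *Dusp1* held the full site. The genes were listed because they are known CREB targets, so this count only describes their sequence. The match nearest to the start is shown for *Dusp1*, *Fos* and *Nr4a1*, so that it can be compared with the stretches of *Pde4b* and *Prkar1a* above. They lie at chr17:26508597-26508626 (*Dusp1*, minus strand, 143 bases before the start), chr12:85473812-85473841 (*Fos*, plus strand, 66 before) and chr15:101266794-101266823 (*Nr4a1*, plus strand, 40 before).
Dusp1: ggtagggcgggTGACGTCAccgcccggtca
Fos: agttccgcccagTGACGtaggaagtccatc
Nr4a1: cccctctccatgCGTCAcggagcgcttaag
*Dusp1* and *Prkar1a* both carry a full site here, and *Dusp1* rose with CGRP while *Prkar1a* was lower without being called. In *Prkar1a* the full site lies in 2 of 6 windows, and which start was in use was not measured. The part of the site in either value was not tested.

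For NMU against IL-33 the single call among the 53 genes was *Calcrl*, which encodes the ligand-binding part of the CGRP receptor. It was at 24.6 and 77.2 CPM in WT and 38.8 and 35.8 CPM in *Pac1-/-* libraries with IL-33, and at 231 and 117 CPM in WT and 404 and 313 CPM in *Pac1-/-* libraries with NMU, 5.73-fold (adjusted p = 0.00853 in edgeR's quasi-likelihood test). No NMU library overlapped the IL-33 libraries. Between the peptides, 11 of the 53 were called higher with CGRP and 3 lower, where 5.47% of all genes were called and 2.63% called higher. The higher ones were 7 CREB targets, the phosphodiesterases *Pde7a* (log2 fold change 1.83) and *Pde7b* (2.66), the PKA anchor *Akap12* (3.24) and the proton-sensing receptor *Gpr65* (0.79, with overlapping libraries). The lower ones were *Calcrl* (-1.68), the prostaglandin E2 receptor *Ptger2* (-2.51) and the PKA inhibitor *Pkib* (-1.92). *Pde7b* with CGRP ranged from 10.2 CPM to 84.0 CPM, the latter in WT replicate 1. None of the 53 was called for IL-33 against IL-7 or between the genotypes.

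**Figure D5:**
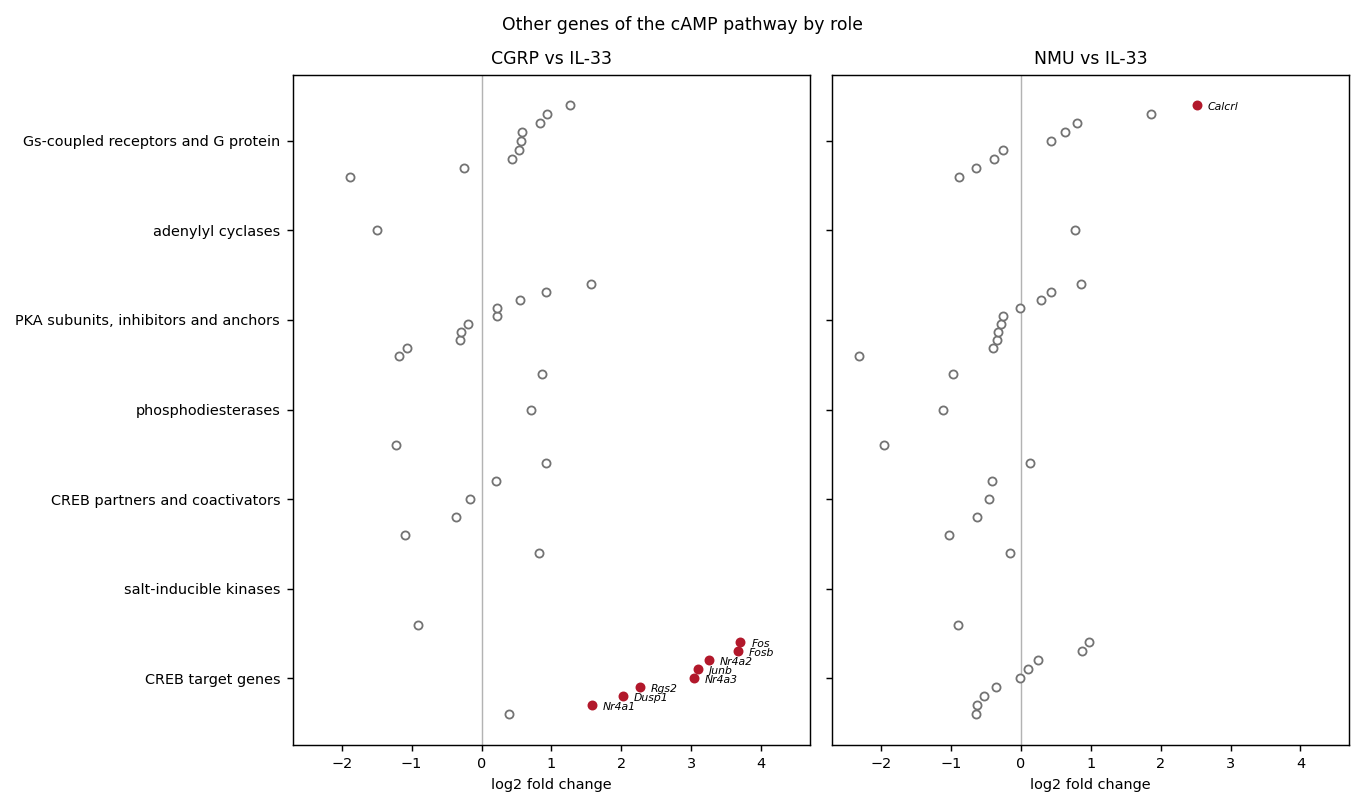
Log2 fold change of the cAMP pathway genes whose mean reached 5 CPM, grouped by role, for CGRP against IL-33 and NMU against IL-33 with both genotypes averaged, called genes in red and named. The CREB targets lie highest for CGRP, up to 3.70 for *Fos*, and *Calcrl* (2.52) is the one gene called for NMU among those shown.

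For the 3 members called in a treatment comparison, the genes with the most similar pattern were taken over the 16 libraries by Pearson's r of log2 CPM, ranking the 4880 genes whose mean reached 20 CPM. These correlations include the differences between treatments and share each library's depth, so they are a description. *Crem* lay closest to *Id2* (r = 0.93), a transcriptional regulator that all innate lymphoid cells need, to the mitochondrial gene *mt-Co1* (0.93) and to *Arhgap15* (0.89). *Pde4b* lay closest to *Klf6* (0.95), a zinc finger transcription factor, *Nop53* (0.90) and *Tiparp* (0.89), and *Sik1* to *Gna13* (0.94), which encodes a G protein alpha subunit, *Bhlhe40* (0.92) and *Lmo4* (0.92). No member was among these nearest genes of another. Among the members, r was 0.70 between *Pde4b* and *Sik1*, 0.57 between *Crem* and *Sik1* and 0.03 between *Crem* and *Creb1*, each over 16 libraries.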

How the data were processed

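RNA of about 500 sorted ILC2s per library was amplified as full-length cDNA and sequenced as paired ends, per the study's methods, and the authors used HISAT2 to align them to mm10. The deposited table holds unnormalised counts of reads per gene, without molecular identifiers, so PCR copies are not independent and limits set by 3 counts cover counting error only. The counting tool, annotation and strand setting are not given in the sources used here. One edgeR fit (4.0.16, R 4.3.3; TMM scaling, filterByExpr, quasi-likelihood F-test) of 8 group means over 16 libraries, with 8 residual degrees of freedom, tested 14979 genes, with Benjamini-Hochberg adjustment over all of them in each contrast. A gene was called at a fold change above 1.5 and an adjusted p under 0.05. CPM used library totals scaled by TMM, and RPKM also the exon length of GENCODE gene models on GRCm38. Pathway genes outside the members are named where called in a comparison pooled over genotypes or treatments, and the 3 nearest genes by correlation. The script was tested on simulated data. Tried alternatives were RLE factors, DESeq2 (1.42.0), other filters on low counts, robust estimation, the libraries of a comparison alone, a replicate block and leaving out each library. The members and gene lists were chosen with earlier results of these data known.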

Additional observations from a re-analysis of the deposited data

How the results depend on the processing

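For the 9 members other than *Pde4a*, 1098 values were recomputed for 45 log2 fold changes, and 1032 kept their direction and side of the threshold. Of the rest, 30 turned sign, 29 lost a call and 7 gained one. Most of the 45 were not called to begin with, so staying uncalled makes up most of the 1032. For CGRP against IL-33, the 2 members called became 1 (*Pde4b*) with the libraries of the comparison alone, 0 to 2 when 1 library was left out, and 0 within WT when both *Pac1-/-* CGRP libraries were left out, an alternative chosen after seeing the data that also tests with fewer libraries. That last alternative also took the 3 members called for CGRP against NMU to 0 (2 to 3 when 1 library was left out). For NMU against IL-33, DESeq2 called 2 members instead of 0. Within a genotype, over 6 comparisons, 0 members became 6 with DESeq2, 1 with RLE factors, 1 without a filter, 1 with at least 10 counts in every library, and 0 to 1 when 1 library was left out. Apart from these alternatives' construction, the cause was not tested.

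The values that turned sign were not called. Without both *Pac1-/-* CGRP libraries, *Creb1* came to -0.25 for CGRP against IL-33 and -0.20 against NMU, and *Prkacb* to -0.43 against NMU (log2 fold change). Leaving out 1 library gave *Creb1* -0.17 to 0.82 for IL-33 against IL-7, -0.17 to 0.59 for CGRP and -0.35 to 0.40 for NMU against IL-33, and -0.079 to 0.33 between genotypes. It gave *Crem* -0.25 to 0.14 and *Pde4b* -0.43 to 0.21 for NMU against IL-33, and *Pde4b* -0.16 to 0.25 and *Pde4d* -0.36 to 0.32 for IL-33 against IL-7. *Adcy7* ranged from -0.93 to 0.014 for IL-33 against IL-7, -0.86 to 0.088 for NMU against IL-33 and -0.17 to 0.28 between genotypes. *Prkar1a* ranged from -0.37 to 0.054 for CGRP against NMU and -0.20 to 0.0074 between genotypes, and *Sik1* from -0.070 to 0.23 between genotypes. A group left with 1 library was assumed to vary like the others.

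Over all genes, CGRP against IL-33 called 413 genes, 1531 with DESeq2, 845 without a filter, 608 with at least 10 counts in every library, 230 with its own libraries alone and 130 to 489 when 1 library was left out. NMU against IL-33 called 28, and 292, 116, 53 and 13 under the same 4 settings. CGRP against NMU called 820, and 2244 with DESeq2, 1318 without a filter and 495 with its own libraries alone.

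Whether the replicate numbers in the labels pair the libraries is not stated in any source. The counts showed no shared effect of the number, which does not establish that the libraries were unpaired. Over 28 pairs of groups the deviations of same-numbered libraries correlated at -0.064 to 0.039. With the number as a replicate block the members called were 2 for CGRP against IL-33 and 3 for CGRP against NMU, as without it, and 366, 27 and 776 genes were called for CGRP against IL-33, NMU against IL-33 and CGRP against NMU.

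The biological coefficient of variation was 0.21 for *Crem*, 0.24 for *Prkar1a* and 0.35 for *Pde4b*, and 0.41 to 0.58 for the others except *Pde4a* (1.83). With 2 libraries a group it limits the differences that could be detected. Levels near 3 counts, as in *Pde4a*, carry no fold change.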
